A study of Mus musculus with 9 samples.

Results

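Genes of 10 amino acid transporters were followed here in mouse embryonic stem cells (ESCs) in which a forced homodimer of the transcription factor E2A was induced. They are 10 of the 47729 genes with a value in the FPKM table, namely Slc6a9, Slc7a1, Slc7a3, Slc7a5, Slc7a11, Slc3a2, Slc1a4, Slc1a5, Slc38a1 and Slc38a2. They were chosen by name, as carriers of amino acids across the cell surface, with their fold-changes in these same libraries already known. Their changes between time points are therefore a description of these libraries, and each adjusted p below gives a gene's place in a fit over all genes and is no test of the choice. All 10 genes were found by name, and 9 of them passed the minimum mean of 0.1 FPKM for the main fit. FPKM gives fragments scaled to exon length and to the depth of the library. Levels of different genes are set side by side on this scale, and their order and ratios depend on the exon length used for each gene.

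The study asked which genes respond when E2A homodimers are forced on pluripotent cells. The cells carried a doxycycline (dox)-inducible transgene with linked copies of mouse E47, a product of the E2A gene Tcf3, inserted by cassette exchange. They were cultured on gelatin in LIF/serum, a medium for self-renewal that the study supplemented with non-essential amino acids and glutamine. There were 3 time points with 3 biological replicates each, namely untreated cells (0 h) and cells given dox at 1 µg/ml for 18 h or for 24 h. Cells of all 9 libraries carry the transgene, and only the 0 h libraries had no dox, so exposure to dox, time in culture and induction of E2A cannot be told apart. A line given dox without the transgene was not analysed here. A treatment note in the labels mentions times of 24 h and 48 h, whereas the titles and treatment entries give 18 h and 24 h, which were used.

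Between 22028363 and 26471569 reads fell on genes in each library. The level of Tcf3 rose from 39.1±1.80 FPKM (mean±s.d., n=3) before dox to 110.1±5.52 after 18 h and 102±7.55 after 24 h, a count that can include transcripts of the transgene. All 10 markers of pluripotent cells, Pou5f1, Sox2 and Nanog among them, were at 1 FPKM or more in every library. Their summed level was 1459 to 2147 FPKM before dox, 1147 to 1784 after 18 h and 1076 to 1728 after 24 h, and single markers went either way, with mean levels before dox and after 24 h of 371 and 248 FPKM for Pou5f1, 131 and 47.5 for Tdgf1 and 40.6 and 73.4 for Nanog. The summed level of 7 fibroblast markers lay between 6.13 and 14.7 FPKM over all libraries, and that of 4 primitive endoderm markers between 0.582 and 0.931. The summed level of 6 neural markers was 64.3 to 77.6 FPKM at 0 h, 76.4 to 93.5 at 18 h and 81.4 to 104 at 24 h, and that of 5 trophoblast markers was 2.72 to 3.51, 11.8 to 14.4 and 16.1 to 17.5 FPKM. Most of the neural sum was Tubb3, with means of 41.5 FPKM before dox and 63.1 after 24 h, and Stmn2, with 27.9 and 23.2. Means of the other neural markers were 0.351 and 2.46 for Sox1, 0.347 and 0.350 for Pax6, 0.740 and 0.934 for Map2 and 0.0191 and 0.0443 for Dcx. The rise of the trophoblast sum was mostly in Hand1, with means of 1.22 and 11.6 FPKM, and Cdx2, with 0.476 and 3.44. The means of the other trophoblast markers were 0.811 and 1.03 for Ascl2, 0.597 and 0.821 for Krt7 and 0.0192 and 0.0064 for Elf5. The part of these markers in the changes described here was not tested. In bulk RNA, fewer cells that express a gene and less RNA per cell cannot be told apart.

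Amino acids enter a cell through membrane proteins of several solute carrier (SLC) families, which differ in the amino acids they take and in whether they use the sodium gradient or exchange one amino acid for another. Slc38a1 and Slc38a2 import small neutral amino acids with sodium, and the exchangers Slc7a5, Slc1a4 and Slc1a5 trade what is already inside for other amino acids. Slc7a5 and Slc7a11 are light chains that need the heavy chain Slc3a2 to reach the membrane. Cells short of amino acids activate the kinase Gcn2 and make the transcription factor ATF4, which acts with C/EBP proteins on promoters and introns of many of these genes, and rapidly growing cells such as ESCs are known for a large demand for amino acids.

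Transcripts of most of these transporters were less abundant after addition of dox. Compared with 0 h, 8 of the 9 genes in the main fit fell at 18 h and the same 8 fell at 24 h, with 0.05 as the highest adjusted p accepted (limma on log2(FPKM+0.1), Benjamini–Hochberg over 17951 genes). Over all genes, 3.72% passed in this direction at 18 h and 5.11% at 24 h. The exception was Slc38a2, the most abundant transporter of the set after addition of dox. With the additional requirement of a log2 fold-change (log2FC) of at least 1 in size, a change of 2-fold, Slc6a9, Slc7a1 and Slc1a4 were downregulated at 18 h, where 0.724% of all genes were. At 24 h Slc7a5 was downregulated as well, which made 4 genes, against 0.836% of all genes. The median log2FC of the 9 genes was -0.74 at 18 h and -0.95 at 24 h, and over all genes tested it was -0.0030 and 0.0040. Both comparisons use the same 0 h libraries. Every 18 h library lay below every 0 h library for 9 of the 10 genes, and the same held at 24 h, with Slc38a2 again the exception. Over all genes tested this was so for 13.7% at 18 h and 14.6% at 24 h.

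**Figure D1:**
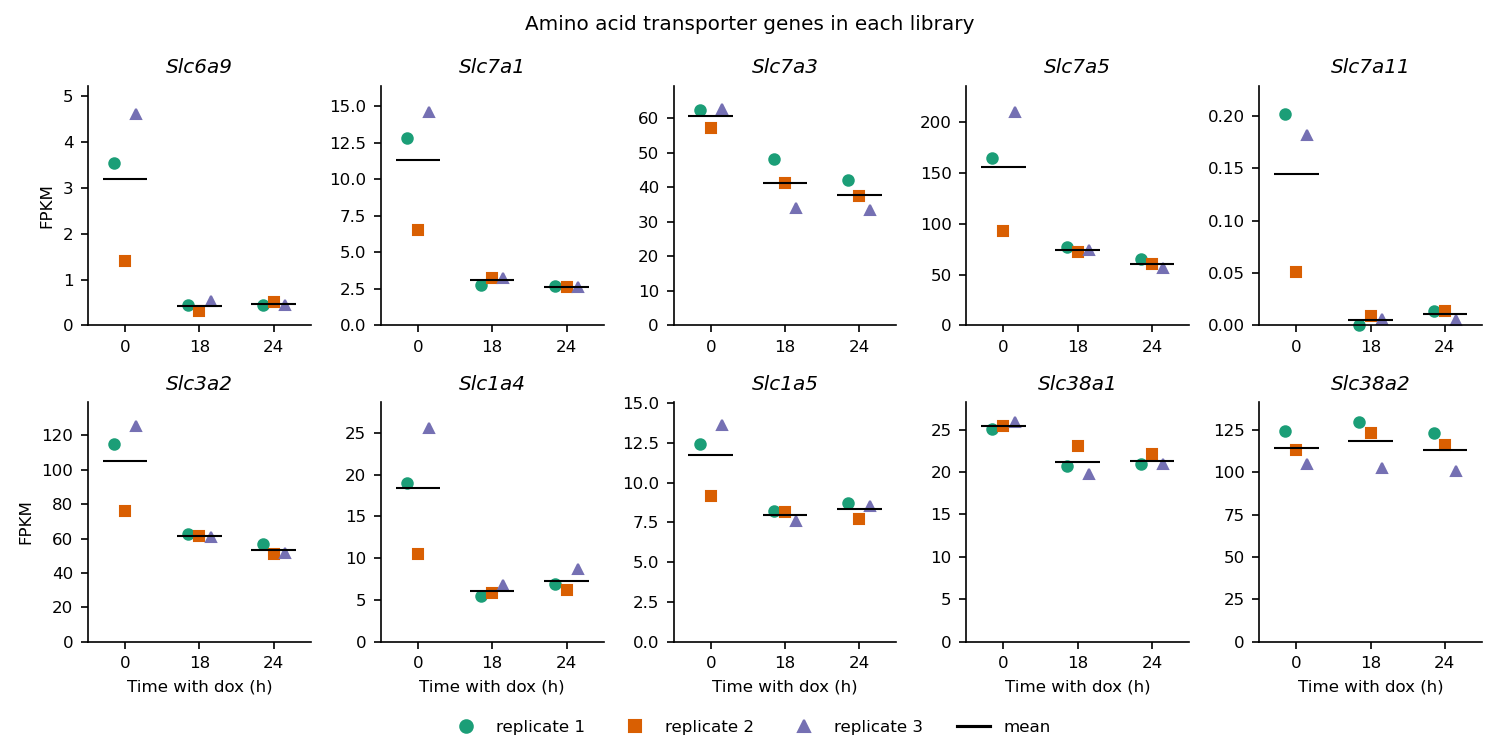
FPKM of each transporter gene (vertical axis, from 0, a scale of its own in each panel) in the 3 libraries of each time point (horizontal axis, hours with dox), with a symbol for each replicate number and a line at the mean. In 9 of the 10 panels all libraries with dox lie below all 0 h libraries, and in 8 panels replicate 2 is the lowest of the 0 h libraries.

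Slc6a9 encodes GLYT1, which carries glycine with sodium and chloride. The gene spans chr4:117834506-117875198 of GRCm38 (plus strand, 22 merged exon blocks). It was expressed at 3.52, 1.41 and 4.61 FPKM in replicates 1, 2 and 3 before dox, 0.442, 0.312 and 0.539 after 18 h and 0.444, 0.518 and 0.436 after 24 h. The groups did not overlap, although 0 h replicate 2 had less than the other 0 h libraries and the 3 were 3.27-fold apart from lowest to highest. The log2FC of -2.50 at 18 h (s.e. 0.373; limma adjusted p = 0.00604) was the largest fall of the 9 genes in the main fit, and at 24 h it was -2.39 (s.e. 0.373; limma adjusted p = 0.00594). These values rest on 174 to 515 reads per library at 0 h and 40 to 68 with dox.

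Slc6a9 shares exon sequence with genes on the opposite strand. Ccdc24 covers 1429 of its 5141 exon bases and had 8 to 23 reads per library, B4galt2 covers 46 and had 437 to 692 reads, and Gm17114 covers 511 and was listed at 0 FPKM in all libraries. The libraries were made with a stranded kit, but whether strand was used in counting is not given in the sources used here, so the level of Slc6a9 is uncertain by the reads of these neighbours. With a pseudocount of 1 in place of 0.1, the log2FC of Slc6a9 was -1.46 at 18 h and -1.43 at 24 h, because a larger pseudocount makes the fold of a weakly expressed gene look smaller.

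The transporters of the cationic amino acids arginine and lysine, Slc7a1 (CAT1) and Slc7a3 (CAT3), both fell, but by unequal amounts. Slc7a1 spans chr5:148327410-148399904 (minus strand, 14 exon blocks) and Slc7a3 spans chrX:101079210-101086020 (minus strand, 11 exon blocks). The FPKM of Slc7a1 was 12.9, 6.52 and 14.6 before dox, 2.79, 3.24 and 3.28 after 18 h and 2.70, 2.65 and 2.63 after 24 h. The 0 h libraries were spread over 2.24-fold, and the 24 h libraries over 1.03-fold. The log2FC of Slc7a1 was -1.76 at 18 h (s.e. 0.249; limma adjusted p = 0.00519) and -1.97 at 24 h (s.e. 0.249; limma adjusted p = 0.00228).

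For Slc7a3 the values were 62.4, 57.1 and 62.8 FPKM before dox, 48.2, 41.4 and 34.0 after 18 h and 42.2, 37.6 and 33.4 after 24 h. Here the 0 h libraries were close together and the spread was at 18 h, where replicate 3 was lowest. The log2FC was -0.57 at 18 h (s.e. 0.125; limma adjusted p = 0.0265) and -0.69 at 24 h (s.e. 0.125; limma adjusted p = 0.010), under the minimum size of 1. As levels per length, Slc7a3 was 4.30 to 8.77 times as abundant as Slc7a1 in the 0 h libraries, 10.4 to 17.3 times at 18 h and 12.7 to 15.6 times at 24 h, with no overlap between the libraries without dox and those with it.

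Slc3a2 encodes 4F2hc (CD98), the heavy chain that escorts light chains of the Slc7 family to the membrane (chr19:8706882-8723369, minus strand, 13 exon blocks). Its FPKM was 115, 76.0 and 125 before dox, 62.6, 61.6 and 60.9 after 18 h and 56.6, 51.3 and 51.8 after 24 h. All libraries with dox lay below all 0 h libraries, and the 18 h libraries differed from each other by 1.03-fold. The log2FC was -0.74 at 18 h (s.e. 0.155; limma adjusted p = 0.023) and -0.95 at 24 h (s.e. 0.155; limma adjusted p = 0.00705). Slc3a2 was thus short of the minimum of 1 at both times. At 24 h it passed this minimum without 0 h replicate 2, with -1.17, and with median centring, with -1.03. When single libraries were omitted, its limma adjusted p reached 0.082 at 18 h and 0.0318 at 24 h.

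The light chain gene Slc7a5, for the exchanger LAT1 of large neutral amino acids such as leucine, was the most abundant of the 10 genes at 0 h. It spans chr8:121881150-121907694 (minus strand, 11 exon blocks). It was expressed at 164, 92.5 and 210.1 FPKM before dox, 77.3, 71.7 and 73.7 after 18 h and 65.7, 60.2 and 56.0 after 24 h. The 0 h libraries differed by 2.27-fold, and the lowest of them, replicate 2, was still above all libraries with dox. At 18 h the log2FC was -0.99 (s.e. 0.239; limma adjusted p = 0.0384), just short of the minimum size of 1, and at 24 h it was -1.28 (s.e. 0.239; limma adjusted p = 0.0117). At 18 h Slc7a5 was called with median centring (-1.03), without 0 h replicate 2 (-1.32) and in edgeR (-1.07), which fits counts of reads, and its adjusted p rose to as much as 0.118 with another library left out.

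The heavy chain and its light chain did not keep one ratio across the 0 h libraries. Slc7a5 was 1.43, 1.22 and 1.68 times as abundant as Slc3a2, per length, in replicates 1, 2 and 3 at 0 h. At 18 h the ratio was 1.20±0.0357 and at 24 h 1.14±0.0499 (mean±s.d., n=3), and the lowest 0 h library overlapped the 18 h libraries.

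Slc7a11, the other light chain, encodes xCT, which imports cystine in exchange for glutamate. The gene spans chr3:49892526-50443614 (minus strand, 13 exon blocks). Its mean of 0.0536 FPKM over all 9 libraries was under the minimum for the main fit, although its mean at 0 h alone was 0.145, so it is given by its reads, which numbered 67, 17 and 55 before dox, 0, 3 and 2 after 18 h and 5, 5 and 2 after 24 h. Replicate 2 was again the lowest 0 h library, and all libraries with dox were below it. Relative to library size, the 139 reads at 0 h and 5 at 18 h gave a level 28.8-fold lower, with a 95% counting interval of 12.0 to 90.0, and the 12 reads at 24 h gave a level 13.1-fold lower, with an interval of 7.25 to 25.9. These intervals cover counting error only. In edgeR's quasi-likelihood test on the reads of 19210 genes, Slc7a11 had a log2FC of -4.76 at 18 h (edgeR adjusted p = 0.00111) and -3.67 at 24 h (edgeR adjusted p = 0.00172). With edgeR, 5 of the 10 transporters were called lower at each time, Slc6a9, Slc7a1, Slc1a4, Slc7a5 and Slc7a11, against 1.04% of all genes at 18 h and 1.25% at 24 h.

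Slc1a4 (ASCT1), an exchanger of alanine, serine, cysteine and threonine, and Slc1a5 (ASCT2), which also takes glutamine, are close relatives in the Slc1 family. Slc1a4 spans chr11:20302180-20332713 (minus strand, 8 exon blocks), and its FPKM was 19.0, 10.6 and 25.6 before dox, 5.48, 5.85 and 6.77 after 18 h and 6.94, 6.17 and 8.73 after 24 h. The libraries with dox lay below the lowest 0 h library, replicate 2. The log2FC was -1.51 at 18 h (s.e. 0.275; limma adjusted p = 0.014) and -1.25 at 24 h (s.e. 0.275; limma adjusted p = 0.022). This call was not held at 18 h without 0 h replicate 1 (limma adjusted p = 0.051) or 18 h replicate 2 (0.054), nor at 24 h without 0 h replicate 1 (0.076), 24 h replicate 1 (0.053), 24 h replicate 2 (0.082) or 0 h replicate 3 (log2FC -0.97).

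Slc1a5 (chr7:16781340-16798274, plus strand, 9 exon blocks) fell less. Its FPKM was 12.5, 9.16 and 13.7 before dox, 8.20, 8.13 and 7.58 after 18 h and 8.70, 7.74 and 8.54 after 24 h. The highest library with dox was close to 0 h replicate 2, the lowest without it. The log2FC was -0.54 at 18 h (s.e. 0.132; limma adjusted p = 0.041) and -0.48 at 24 h (s.e. 0.132; limma adjusted p = 0.0487). When libraries were omitted singly, its limma adjusted p reached 0.131 at 18 h and 0.153 at 24 h. At 0 h Slc1a5 was 0.534 to 0.868 times as abundant as Slc1a4, per length, and with dox it was 0.978 to 1.5 times as abundant, so the order of the pair by level was the reverse of that at 0 h in 5 of the 6 libraries with dox.

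The sodium-coupled importers of glutamine, alanine and other small neutral amino acids, Slc38a1 (SNAT1) and Slc38a2 (SNAT2), changed least. Both lie on the minus strand of chromosome 15, Slc38a1 at chr15:96571418-96642913 (17 exon blocks) and Slc38a2 at chr15:96687392-96699730 (11 exon blocks). Slc38a1 was at 25.1, 25.4 and 25.9 FPKM before dox, 20.7, 23.1 and 19.8 after 18 h and 21.0, 22.2 and 20.9 after 24 h. Its 0 h libraries were within 1.03-fold of each other, and replicate 2 was not the lowest of them. The log2FC of Slc38a1 was -0.27 at 18 h (s.e. 0.0649, limma adjusted p = 0.0390) and -0.25 at 24 h (s.e. 0.0649, limma adjusted p = 0.038). Both passed the p threshold at a small size, but not in every alternative. When single libraries were omitted, the limma adjusted p of Slc38a1 reached 0.137 at 18 h and 0.123 at 24 h. With quantile normalization the limma adjusted p was 0.0548 at 18 h and 0.0614 at 24 h.

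For Slc38a2, known as the system A carrier that cells make more of when amino acids run short, the FPKM was 124, 113 and 105 before dox, 129, 123 and 103 after 18 h and 123, 116 and 101 after 24 h. The groups overlapped fully, and at each time replicate 1 was highest and replicate 3 lowest. The log2FC was 0.05 at 18 h (95% interval -0.19 to 0.29; limma adjusted p = 0.803) and -0.01 at 24 h (-0.25 to 0.23; limma adjusted p = 0.957). A fall of the size seen for Slc7a5 or Slc3a2 lies outside these intervals.

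**Figure D2:**
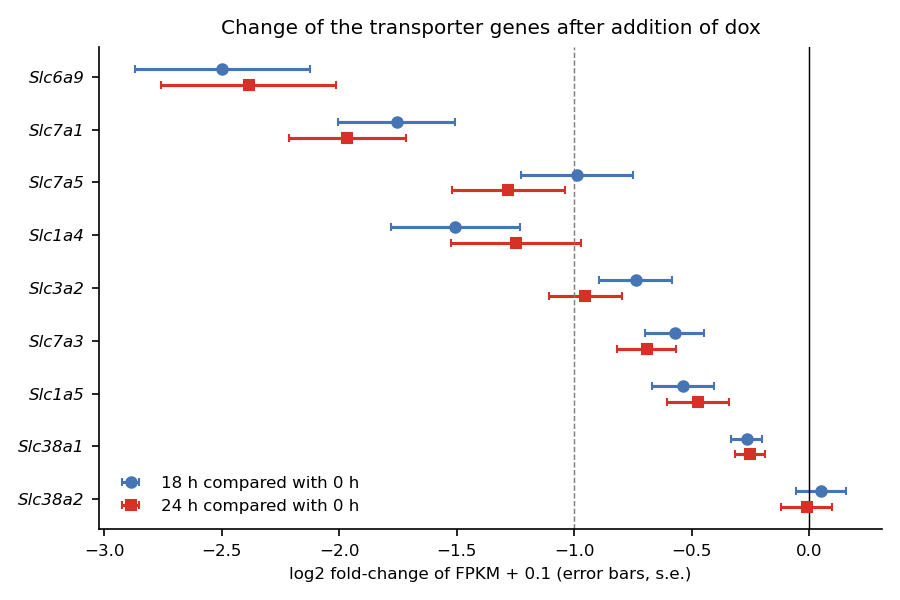
Log2 fold-change compared with 0 h on the log2(FPKM+0.1) scale (horizontal axis) for the 9 transporter genes in the limma fit (vertical axis), at 18 h (circles) and 24 h (squares), with bars for the s.e., a solid line at 0 and a dashed line at the minimum of -1. Slc6a9 and Slc7a1 lie farthest to the left and Slc38a2 lies at 0 at both times.

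From 18 h to 24 h no transporter passed the threshold. Log2 fold-changes ran from -0.29 for Slc7a5 to 0.26 for Slc1a4, 0 of the 9 genes had an unadjusted p under 0.05 by limma, and 0 of the 10 passed with edgeR. Of all genes tested, 0.0223% passed between these times. Every 24 h library lay below every 18 h library for Slc7a1, Slc7a5 and Slc3a2, 3 of the 10 genes, and this was so for 6.04% of all genes tested. Slc7a11 had 5 reads in all at 18 h and 12 at 24 h, a difference that was not detectable at this depth (edgeR adjusted p = 0.97).

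The order of the genes by level per length shifted with dox. At 0 h the means were 156 FPKM for Slc7a5, 114 for Slc38a2, 105 for Slc3a2, 60.8 for Slc7a3, 25.4 for Slc38a1, 18.4 for Slc1a4, 11.8 for Slc1a5, 11.3 for Slc7a1, 3.18 for Slc6a9 and 0.145 for Slc7a11. The libraries of the first 3 overlapped from one gene to the next, as did those of Slc38a1, Slc1a4, Slc1a5 and Slc7a1. At 18 h, with no overlap between neighbours, Slc38a2 was first at 118 FPKM, followed by Slc7a5 at 74.2, Slc3a2 at 61.7 and Slc7a3 at 41.2. At 24 h the order was the same, and the libraries of Slc7a5 and Slc3a2 overlapped, as did those of Slc1a5 and Slc1a4.

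Added together, the 10 genes came to 539, 392 and 588 FPKM in replicates 1, 2 and 3 before dox, 355, 339 and 309 after 18 h and 327, 304 and 283 after 24 h. Slc38a2 made up 23.3%±5.53 of this sum at 0 h, 35.4%±1.86 at 18 h and 37.1%±1.32 at 24 h (mean±s.d., n=3). The share of Slc7a5 was 30.0%±6.10 at 0 h and 19.9%±0.175 at 24 h.

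**Figure D3:**
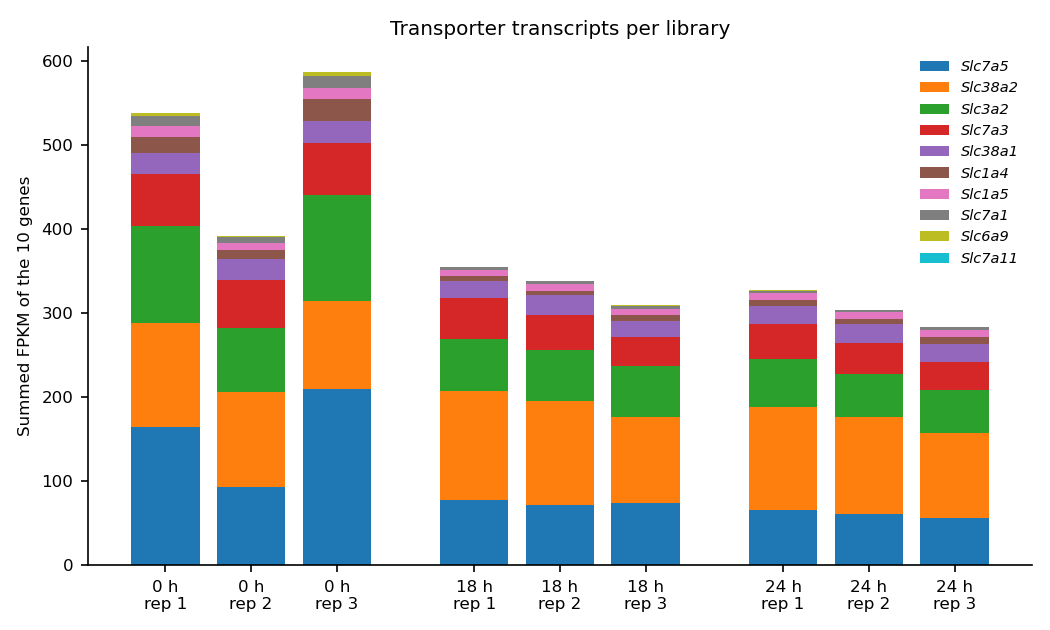
Summed FPKM of the 10 transporter genes (vertical axis, from 0) in each of the 9 libraries (horizontal axis), with the part of each gene in its own colour. The bars at 0 h reach 392 to 588 FPKM and those with dox 283 to 355, while the part of Slc38a2 keeps nearly the same height.

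The 0 h libraries were not alike in these genes. Replicate 2 was the lowest 0 h library for 8 of the 10 transporters, the exceptions being Slc38a1 and Slc38a2, and it was the lowest for 33.2% of all genes tested. The s.d. of log2(FPKM+0.1) at 0 h was larger than at 18 h for 7 of the 10 and larger than at 24 h for 7. It was 0.859 for Slc6a9, 0.646 for Slc1a4, 0.619 for Slc7a1 and 0.607 for Slc7a5, beside a median of 0.177 over all genes. Within each replicate number, 9 of the 10 genes were lower at 18 h and at 24 h than at 0 h, which follows from the lack of overlap given above. For 8 of these 9 the fall was smallest in replicate 2, at 18 h as at 24 h, the exception being Slc7a3. The share of all genes with the smallest fall in replicate 2 was not computed. For Slc7a5 the log2 ratio at 18 h was -1.09, -0.37 and -1.51 in replicates 1, 2 and 3, and for Slc7a1 it was -2.17, -0.99 and -2.12. Without 0 h replicate 2, limma called 4 of the 9 genes lower at 18 h and 5 at 24 h, with medians of -0.96 and -1.17. Without 0 h replicate 1, it called 2 and 3. The number past the p threshold alone depended on single libraries. At 18 h it was 8 with all libraries, 2 without 0 h replicate 1, 3 without 0 h replicate 3, 18 h replicate 2 or 18 h replicate 3, 4 without 18 h replicate 1 and 5 without any one of the 24 h libraries, which share the estimate of the spread. At 24 h it was 8 with all libraries and 5 without 0 h replicate 1, 24 h replicate 1 or 24 h replicate 2. In edgeR, 9 of the 10 genes were past the p threshold at both times, and 7 to 9 with a library left out.

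The same 0 h library was low in genes of the amino acid response. In a list of 25 genes of ATF4 and its known targets, which was written with earlier results of these data known and holds none of the transporters, replicate 2 was the lowest 0 h library for all 25. The summed FPKM of this list was 1602, 952 and 1737 before dox, 746, 698 and 739 after 18 h and 720.3, 654 and 689 after 24 h. Of the 25 genes, 14 were called lower at 18 h and 13 at 24 h, against 0.724% and 0.836% of all genes, and 0 were called higher by limma or edgeR. A stress-response gene of the list, Ddit4, passed the p threshold upwards at both times, with log2FCs of 0.96 (limma adjusted p = 0.0283) and 0.97 (limma adjusted p = 0.0219), and had the one upward change at an unadjusted p under 0.05. With the replicate block, 17 genes were called lower at 18 h and 15 at 24 h, and in edgeR 18 and 17. The median log2FC was -1.21 at 18 h and -1.22 at 24 h. The number called at 18 h was 4 without 18 h replicate 2, 6 without 18 h replicate 3, 7 without 0 h replicate 1, 7 without 0 h replicate 3 and 19 without 0 h replicate 2, against 14 with all libraries. At 24 h it was 9 without 0 h replicate 1, 24 h replicate 2 or 24 h replicate 3 and 22 without 0 h replicate 2, against 13. The part of this list in the changes of the transporters was not tested.

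The other amino acid transporters had a median change near 0. Of 62 further genes found by name from lists written with earlier results known, 44 were tested in the main fit. Of these, 0 were called lower at either time, where 0.724% of all genes were at 18 h and 0.836% at 24 h. At an unadjusted p under 0.05 by limma, 6 were lower at each time. edgeR called 0 lower at 18 h, against 1.04% of all genes. limma called 0 higher at 18 h, where 1.33% of all genes were, and 3 at 24 h, where 2.07% of all genes were. edgeR also fitted genes under the minimum of the main fit, such as Slc17a6, and called 2 higher at 18 h and 4 at 24 h. The share of all genes that edgeR called higher was not computed, so these counts have no background beside them. By the p threshold alone, 1 was lower and 4 were higher at 18 h, and 2 were lower and 7 higher at 24 h. By this rule 3.72% of all genes were lower and 4.27% higher at 18 h, and 5.11% lower and 6.52% higher at 24 h. The median log2FC of the 44 genes was -0.02 at 18 h and 0.09 at 24 h.

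**Figure D4:**
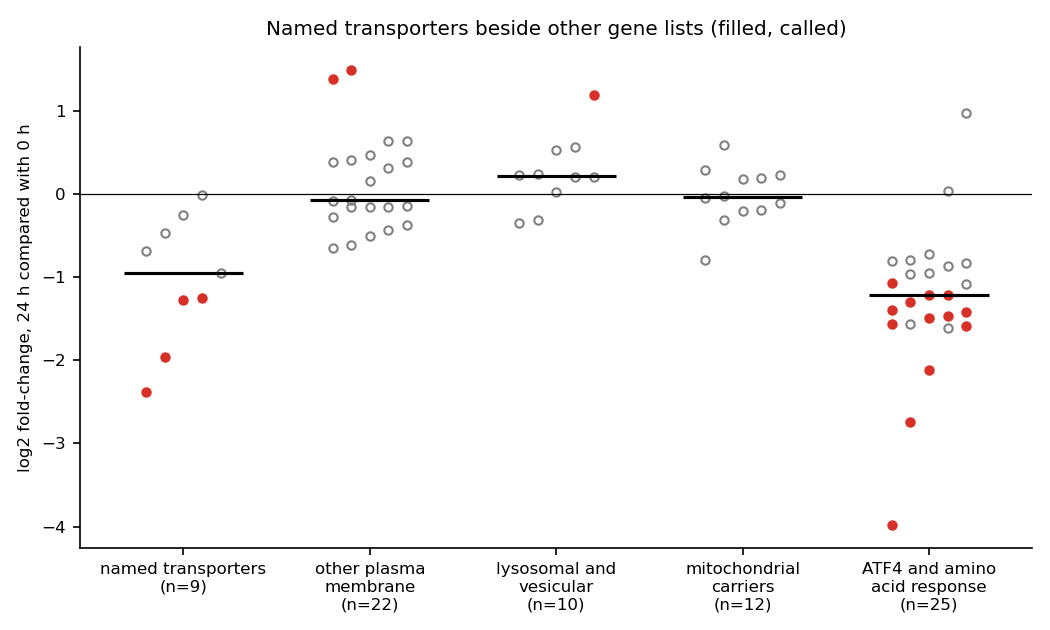
Log2 fold-change at 24 h compared with 0 h (vertical axis) of single genes (circles; filled where called) in 5 lists (horizontal axis; n is the number tested), with a line at each median and symbols shifted sideways for clarity. The named transporters and the ATF4 list have medians of -0.95 and -1.22, and the other transporter lists have medians between -0.08 and 0.21.

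Among 22 other plasma membrane transporters tested, those with the highest level were Slc38a4, Slc7a6 and Slc6a6. Slc38a4 (SNAT4), a further sodium-coupled importer of the Slc38 family, was at 50.9, 66.6 and 52.8 FPKM before dox, 68.0, 73.9 and 72.6 after 18 h and 72.2, 77.3 and 74.7 after 24 h. All libraries with dox exceeded all 0 h libraries, unlike for Slc38a1 and Slc38a2, and its log2FC was 0.34 at 18 h (limma adjusted p = 0.0578) and 0.41 at 24 h (limma adjusted p = 0.0271). Slc7a6, the light chain y+LAT2, had 32.4 FPKM at 0 h and 30.6 at 24 h on average, and the taurine transporter Slc6a6 had 21.5 and 23.9, neither of which passed the threshold.

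Genes named from here to the end of this paragraph were picked after their values were seen. The neutral amino acid transporter Slc6a15 fell from a mean of 13.5 FPKM before dox to 8.69 after 18 h and 8.63 after 24 h, with log2FCs of -0.63 (limma adjusted p = 0.0145) and -0.65 (limma adjusted p = 0.0101). Slc43a1 (LAT3), which like Slc7a5 carries large neutral amino acids, rose from 2.97 FPKM to 4.36 and 4.69, with log2FCs of 0.53 (limma adjusted p = 0.0186) and 0.64 (limma adjusted p = 0.00755). Slc43a2 (LAT4) passed the p threshold at 18 h, with 0.47. The genes called higher at 24 h were at a low level, which was 0.250 FPKM for the glutamate transporter Slc1a2, 0.480 for the light chain Slc7a9 and 1.09 for the vesicular glutamate transporter Slc17a7. In edgeR, Slc1a2 and Slc17a6, a relative of Slc17a7, were called higher at 18 h, and both were again called at 24 h with Slc7a9 and Slc17a7. Slc17a6 was under the minimum for the main fit, with 0 or 1 read per library at 0 h, 3 to 11 at 18 h and 5 to 13 at 24 h.

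Inside the cell, 10 lysosomal and vesicular transporters and 12 mitochondrial carriers were tested. The lysosomal glutamine transporter Slc38a7 had 12.3, 8.96 and 13.7 FPKM before dox, 8.42, 8.76 and 8.88 after 18 h and 8.89, 9.43 and 9.38 after 24 h, so that 0 h replicate 2 was again the lowest 0 h library and lay within the libraries with dox (log2FC -0.31 at 24 h, limma adjusted p = 0.163). The cystine exporter Ctns and the proton-coupled Slc36a1 did not pass, with 0.20 at 24 h for each. In mitochondria, the serine carrier Sfxn1 fell from 33.7 FPKM to 27.1 at 24 h, a log2FC of -0.32 (limma adjusted p = 0.0279), and the aspartate and glutamate carrier Slc25a13 (-0.20) and the ornithine carrier Slc25a15 (-0.11) did not pass. The cysteine transporter Mfsd12 and the branched-chain amino acid carrier Slc25a44, also picked after their values were seen, passed the p threshold upwards at both times, with 0.56 and 0.29 at 24 h.

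Promoter sequence was read for the transporters with an entry in a RefSeq table of windows that run from 250 bases before to 50 bases after a start site (GRCm38.p6). This gave 9 windows for 6 genes, Slc6a9, Slc7a1, Slc7a11, Slc3a2, Slc1a4 and Slc38a2, and Slc7a3, Slc7a5, Slc1a5 and Slc38a1 are named only. Searched on both strands were TGATGNAA, the form of the C/EBP-ATF response element to which ATF4 and C/EBP proteins bind, and the E-boxes CAGCTG and CACCTG, of the kind that E proteins bind. In 32851 windows of this length TGATGNAA was in 3.97%, CAGCTG in 16.3% and CACCTG in 20.2%. The windows of Slc7a11 and Slc1a4 held TGATGNAA. They are shown, 5′ to 3′ on the strand of the gene, because these genes fell and because Slc7a11 has a pair of matches on opposite strands 11 bases apart. Those of Slc7a1 and Slc38a2 are shown as the windows with an E-box, in a gene that fell and one that did not pass. Capitals mark the matches.
Slc7a11, chr3:50443643-50443689, minus strand, with matches that begin 66 and 47 bases before the start: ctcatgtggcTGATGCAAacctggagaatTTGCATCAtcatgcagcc
Slc1a4, chr11:20332700-20332727, minus strand, with TGATGNAA on the opposite strand from 4 bases before the start: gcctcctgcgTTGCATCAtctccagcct
Slc7a1, chr5:148400070-148400095, minus strand, with CAGCTG from 181 bases before the start: acctggtcgtCAGCTGtccgtggctc
Slc38a2, chr15:96699785-96699810, minus strand, with CACCTG on the opposite strand from 72 bases before the start: aggcggagccCAGGTGctgttgatac
None of these motifs was in the windows of Slc6a9 or Slc3a2. A match is a run of letters in a window and says nothing about binding in these cells, for which no data were used here.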

How the data were processed

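RNA of 9 libraries (3 time points, 3 replicates each) was analysed. The authors prepared libraries with a stranded mRNA kit, aligned the reads to GRCm38 with STAR 2.5.2b and used edgeR 3.16.5, and the submitters' processing notes also name cutadapt 1.9. They deposited FPKM values for 47729 genes and a signal for 19210 genes, a CPM scaled to an effective library size, for which dividing by the worth of 1 read gave whole reads for 100% of values (tolerance 0.01). The log2 fold-changes, p-values and false discovery rates of the authors' own comparisons, deposited in the same table, were not used. Every sample column was matched to a library. The counting tool and its use of strand are not given in the sources used here.

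limma 3.58.1 in R 4.3.3 (lmFit, eBayes with a trend) was fitted to log2(FPKM+0.1) without a block, using all libraries and the 17951 genes that averaged 0.1 FPKM or more. A gene was called where the adjusted p was 0.05 or less and the log2 fold-change at least 1 in size, the lower of the differing minima in the study's methods and a figure legend. edgeR 4.0.16 was run on the recovered reads, as the main value for Slc7a11 only. The transporters and all lists were chosen with earlier results of these data known. Other genes named are Tcf3, markers of cell types, those that overlap a transporter, those called or the 3 with the highest mean FPKM in each list of other transporters, and those said to be picked afterwards. Ddit4 of the ATF4 list was named for its upward change. Coordinates come from GENCODE M21, in which 47224 of the genes were found. Fits were tested on simulated data, of which no result is given here. An edgeR result at 24 h among the other transporters is not reported here.

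Deviations from the time point means were correlated between libraries of one replicate number (r of 0.211 to 0.548 in 9 pairs, over 11893 genes), and the study speaks of biological replicates, so the numbers pair the libraries. Replicates differed by more than sampling noise (chi-square per degree of freedom 5.79 to 17.8), so none was merged. No exact permutation test of 1 gene is given, since 3 libraries against 3 allow no p below 0.1. Alternatives were pseudocounts of 1 and 0.01, no filter or a mean of at least 1 FPKM, quantile normalization, median centring, a replicate block, no minimum fold-change, edgeR with and without the block, DESeq2 1.42.0, and each library left out. For Slc7a11, leaving out each library in edgeR was added after the data were seen. Python 3.11.15, pandas 2.3.3, scipy 1.17.1 and matplotlib 3.10.9 were used.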

Additional observations from a re-analysis of the deposited data

How the results depend on the processing

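Both comparisons rest on 3 libraries at 0 h, of which replicate 2 was low in most transporters, and falls were described on FPKM, whose precision at low levels is limited by few reads, as for Slc7a11 and Slc6a9. The direction of the 9 transporters that fell was the same in every alternative run for 18 h and 24 h compared with 0 h. For these 9 the replicate block changed no call, with 3 of the tested genes called lower at 18 h and 4 at 24 h as without it. Slc7a11 kept its call in edgeR, with and without the block or a library, and in DESeq2, with log2FCs of -5.41 to -4.23 at 18 h and -4.08 to -3.33 at 24 h. In limma on log2(FPKM+0.1) without a filter, which differs in test and scale as well, it was also called, with -1.16 and -1.08. With no filter, Slc7a5, Slc1a5 and Slc38a1 had adjusted p above 0.05 by limma at 18 h, and Slc1a5 and Slc38a1 at 24 h (0.0788 and 0.0523). With a pseudocount of 1, Slc1a5 had 0.0502 at 24 h. With quantile normalization, 6 of the 9 genes in the main fit passed the p threshold at 18 h and 7 at 24 h. Where no cause is named, the cause of a shift was not tested.

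The transporters called at 18 h numbered 5 with edgeR, 5 with the replicate block in edgeR and 5 with DESeq2, which also fit Slc7a11, and with no minimum fold-change 8 at 18 h and 8 at 24 h, by the construction of that rule. Reversals were confined to changes that had not passed. Slc38a2 at 24 h compared with 0 h was 0.13 with quantile normalization, and Slc38a1 at 24 h compared with 18 h was -0.026 with median centring. With each library left out, Slc38a2 ran from -0.017 to 0.15 at 18 h and from -0.074 to 0.069 at 24 h. Between 18 h and 24 h the ranges were -0.059 to 0.26 for Slc6a9, -0.25 to 0.00036 for Slc7a3, -0.032 to 0.077 for Slc38a1 and -0.16 to 0.018 for Slc38a2.

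Over all genes, the main count of 369 called at 18 h became 120 with a pseudocount of 1, 210 with a mean FPKM of at least 1, 583 with edgeR, 816 with edgeR and the replicate block, 1433 with no minimum fold-change and 224 to 428 with a library left out (232 without 18 h replicate 2, 224 without 18 h replicate 3). At 24 h, 521 became 151, 265, 780, 1018, 2088 and 333 to 544 (333 without 24 h replicate 3) under the same settings. Between 18 h and 24 h, 4 became 0 with a pseudocount of 1, a mean FPKM of at least 1 or edgeR, 1 with a pseudocount of 0.01, 9 with edgeR and the replicate block, 2 with DESeq2 and 0 to 8 with a library left out. The other transporters called in either direction, 0 at 18 h, were 1 with a pseudocount of 0.01, 2 with edgeR, 5 with the replicate block in edgeR (2 of them lower, Slc32a1 with -1.51 and Slc6a12 with -2.79), 2 with DESeq2 and 5 with no minimum fold-change. Their 3 at 24 h became 0 with a pseudocount of 1 or a mean FPKM of at least 1, 5 with edgeR, 5 with the replicate block in edgeR, 9 with no minimum fold-change and 1 to 3 with a library left out. The falls of Slc6a12 and Slc32a1 at 18 h rest on few reads. Slc6a12 had 4 to 6 reads per library at 0 h and 0 or 1 at 18 h, and Slc32a1 had 9 to 17 and 3 to 6.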
